A study of Mus musculus with 9 samples.

Results

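The 5 genes described here are Clca1, Clca2, Clca3a1, Clca3a2 and Clca3b, the calcium-activated chloride channel regulator (Clca) genes whose rows were taken by symbol from a table of 21983 genes. They were chosen because earlier results on these same libraries described them as responding in opposite ways, so every level and fold change of theirs is given as a description, with no test. The values below differ in pattern between members but do not show opposite changes larger than their errors. Lung RNA of BALB/c mice, an inbred laboratory strain, was sequenced in 3 groups of 3 libraries. Control mice were normal mice given saline by mouth, asthma mice carried a chronic asthma model and were given saline, and BSYQF mice carried the same model and received the herbal preparation Bu-Shen-Yi-Qi formula, used in Chinese medicine. Saline and formula were given from day 14, the formula at 20 g of raw herbs per kg of body weight for 6 weeks, and the sources used here do not give the inducing agent or the age and sex of the mice.

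Clca proteins are secreted or membrane-anchored proteins that are cleaved after synthesis and act on chloride currents rather than forming the channel. Clca1, also known as gob-5, is made by goblet cells, is shed with mucus and raises the surface level of the calcium-activated chloride channel Ano1. Its expression is known to follow the type 2 cytokines IL-13 and IL-4 through the transcription factor STAT6, and it is a familiar marker of mucous metaplasia in mouse asthma models. Clca2 is a membrane protein of stratified and basal epithelia. The Clca3 genes are less well studied: Clca3a1 is described in secretory epithelia and lymphatic endothelium, Clca3a2 in the mammary gland, and Clca3b in organs rich in smooth muscle.

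All members lie in 1 cluster on the minus strand of mouse chromosome 3, which spans 369.8 kb from 144729677 to 145099443 in mm10 (GENCODE vM21) and also holds Clca4a and Clca4b. Clca1 runs from 145003817 to 145032776, Clca2 from 145070263 to 145099443, Clca3a1 from 144729677 to 144760977, Clca3a2 from 144796559 to 144819494 and Clca3b from 144822623 to 144849357. Each is annotated as protein coding, and the longest transcript has 13 exons in Clca3a1 and 14 in the others. Clca4a and Clca4b were listed at 0 in all 9 libraries, where 3 counts would be 0.134 to 0.202 CPM (read counts scaled to the size of each library).

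**Figure D1:**
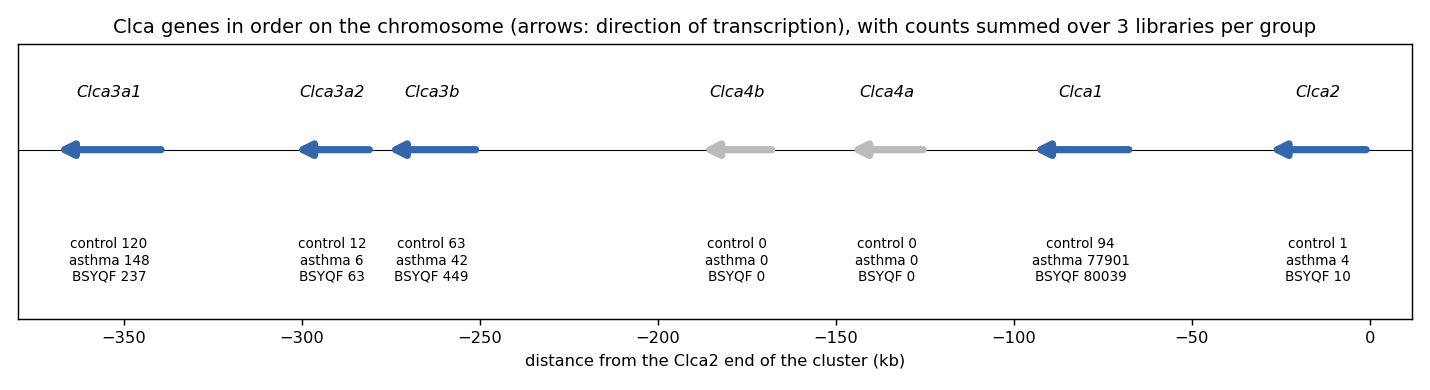
The Clca cluster drawn to scale, with the distance in kb from the Clca2 end on the x axis and arrows pointing in the direction of transcription; grey arrows are the 2 genes listed at 0. The counts under each gene are summed over the 3 libraries of a group and show Clca1 going from 94 to 77901 and 80039, and Clca3b from 63 to 42 and 449, in control, asthma and BSYQF.

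The sequences tell the Clca3 genes apart only in part, which bears on how their counts can be read. The longest transcripts of Clca3a1 and Clca3a2 were identical at 96.4% of aligned bases, and those of Clca3b at 82.9% with either of them. Clca1 was identical at 62.4 to 66.3% of aligned bases with the other 4 members and shared no stretch of 50 bases with them. Of the 50-base stretches in Clca3a2 transcripts, 21.8% also occurred in Clca3a1 and 3.85% in Clca3b, and at 100 bases these shares were 7.48% and 0.454%. The sources used here do not give read length or how reads matching several genes were handled, so the split between Clca3a1 and Clca3a2 is uncertain, while Clca1 and most of Clca3b are distinct.

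The libraries held 16286385 to 22819199 counts, and 14739 genes passed the filter on low counts. The surfactant gene Sftpc, with 238614 to 429543 counts per library, and the club cell gene Scgb1a1, with 361118 to 982899, were high throughout. Not every lung marker was: the surfactant gene Sftpb had only 7 to 24 counts per library, and the reason was not tested. Along the leading principal component (51.6% of variance), asthma replicate 3 (1.77) lay apart from asthma replicates 1 and 2 (51.9 and 76.0), and BSYQF replicate 1 (40.5) apart from BSYQF replicates 2 and 3 (1.20 and -19.6). In asthma replicate 2 the 10 most abundant genes took 17.1% of all counts, against 7.53 to 13.7% in the other libraries. Whether the libraries of a group are separate mice is not stated, and p-values cover only the spread among these libraries, possibly technical. In whole lung, fewer cells of a type and less RNA per cell cannot be told apart.

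Clca1, the goblet cell product, was low in control lungs and far higher in every library of the asthma model. It stood at 2.92, 0.995 and 1.22 CPM in control replicates 1, 2 and 3, at 1198, 3402 and 275 CPM in asthma replicates 1, 2 and 3, and at 4378, 351 and 88.7 CPM in BSYQF replicates 1, 2 and 3. Every library of the model was above every control library, with or without the formula. The asthma and BSYQF ranges overlapped almost wholly: the highest library of all was BSYQF replicate 1 and the lowest of the 6 model libraries was BSYQF replicate 3. In means ± SD (n = 3) these are 1.71 ± 1.05, 1625 ± 1606 and 1606 ± 2404 CPM.

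The log2 fold change of Clca1, fitted by edgeR's quasi-likelihood model over all genes, was 9.88 ± 1.88 (SE) in asthma against control, and 0.0136% of the genes tested had a larger change in either direction. Genes whose asthma libraries all lay above the control libraries made up 22.0% of those tested, and 8.23% were called higher, at an adjusted p under 0.05. Between BSYQF and asthma the value was -0.02 ± 1.25, and without BSYQF replicate 1 it was -2.88, so that 1 library set the level of the group. The sign turned without asthma replicate 2 (1.12), without BSYQF replicate 2 (0.46) and without BSYQF replicate 3 (0.54), so the direction was not settled. In BSYQF against control the log2 fold change of Clca1 was 9.86 ± 1.88, or 6.98 without BSYQF replicate 1. The comparisons with control share the same control libraries. The spread within a group was wide, with a 12.4-fold range over the asthma libraries and a 49.3-fold range over the BSYQF libraries, against 2.93-fold in control.

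**Figure D2:**
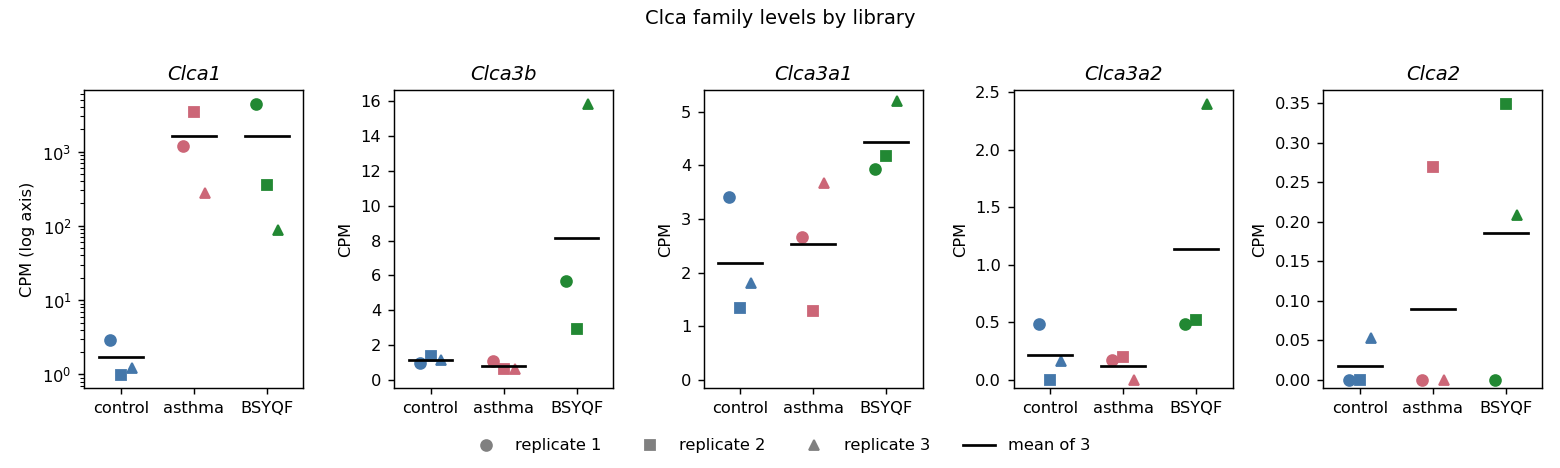
CPM of each Clca gene in every library, with groups on the x axis, 1 symbol per replicate and a bar at the mean of 3; the Clca1 axis is logarithmic and the others are linear. Clca1 is high in all 6 model libraries, whereas Clca3b is above its control range (0.973 to 1.35 CPM) only in the 3 BSYQF libraries (2.90 to 15.9 CPM).

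Clca3b showed another pattern: low in control, no higher in asthma, and higher in each BSYQF library. Its levels were 0.973, 1.35 and 1.17 CPM in control replicates 1, 2 and 3 (18, 23 and 22 counts) and 1.08, 0.605 and 0.628 CPM in asthma replicates 1, 2 and 3 (19, 9 and 14 counts). They were 5.69, 2.90 and 15.9 CPM in BSYQF replicates 1, 2 and 3 (94, 50 and 305 counts). The lowest BSYQF library was above the highest of the other 6, and BSYQF replicate 3 held more counts than the other 8 libraries together. Asthma and control overlapped, since asthma replicate 1 lay within the control range.

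The log2 fold change of Clca3b was -0.59 ± 0.61 (SE) in asthma against control, smaller in size than its error. It was 3.40 ± 0.60 in BSYQF against asthma, where 0.265% of the genes tested had a larger change. Genes whose BSYQF libraries all lay above the asthma libraries made up 4.99% of those tested, and 0.00678% were called higher, a single gene that is not a Clca gene. In BSYQF against control the value was 2.81 ± 0.58, in a comparison in which 13.0% of genes did not overlap upwards and 1.63% were called higher. Without BSYQF replicate 3 the values were 2.47 against asthma and 1.88 against control. The authors' deposited tables list genes by a p under 0.05 and a minimum log2 change of 1 either way. The table for BSYQF against asthma lists 424 genes, with Clca3b at 3.42 and Clca3a2 at 3.28, while Clca1, Clca2 and Clca3a1 are not listed. For BSYQF against control 896 genes are listed, with Clca1 at 9.87, Clca3b at 2.81, Clca3a2 at 2.40 and Clca3a1 at 1.02. For asthma against control 1746 genes are listed, of the members only Clca1, at 9.86. These listings are given as values and not as tests of the members.

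**Figure D3:**
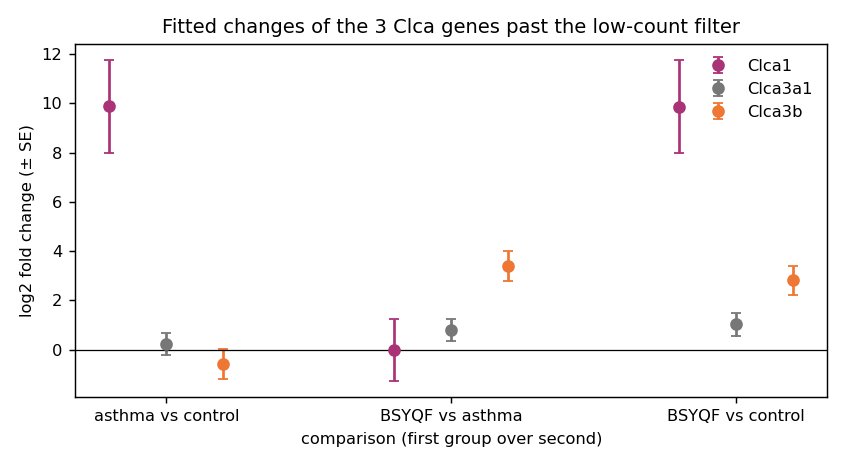
Fitted log2 fold changes ± SE of the 3 Clca genes that passed the filter on low counts, for the first group over the second in each of 3 comparisons on the x axis, from 3 libraries per group. Clca1 is near 10 in both comparisons with control and near 0 in BSYQF against asthma, where Clca3b is at 3.40.

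Clca3a1, the gene at the far end of the cluster, overlapped between control and asthma and was somewhat higher with BSYQF. It stood at 3.40, 1.35 and 1.81 CPM in control, 2.66, 1.28 and 3.68 CPM in asthma and 3.94, 4.18 and 5.20 CPM in BSYQF replicates 1, 2 and 3. The BSYQF libraries lay above all others, but asthma replicate 3 and control replicate 1 came close to them. Of all genes tested, 4.99% had every BSYQF library above the asthma libraries and 13.0% above the control libraries. The log2 fold changes were 0.22 ± 0.46 in asthma against control, 0.79 ± 0.45 in BSYQF against asthma and 1.02 ± 0.46 in BSYQF against control. A larger change in either direction was found for 67.7%, 7.26% and 6.9% of the genes tested, in the same order. The sign of the value for asthma against control turned to -0.16 without asthma replicate 3 and to -0.03 without control replicate 2.

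Clca3a2 and Clca2 did not pass the filter on low counts and are given as counts. Clca3a2 had 9, 0 and 3 counts in control replicates 1, 2 and 3, 3, 3 and 0 in asthma, and 8, 9 and 46 in BSYQF. BSYQF replicate 3 was again the high library, and BSYQF replicates 1 and 2 were close to control replicate 1 (0.484 and 0.523 against 0.486 CPM). Fitted without the filter, Clca3a2 had a log2 fold change of 3.21 ± 1.27 in BSYQF against asthma, which rests on 6 asthma counts in all. When Clca3a1 and Clca3a2 were summed, because reads of these near copies may be split between them, the value was 0.16 ± 0.47 for asthma over control, 1.06 ± 0.46 for BSYQF over asthma and 1.21 ± 0.47 for BSYQF over control. Clca3a2 made up 31.5% of the summed counts in BSYQF replicate 3 and 0 to 13.6% in the other libraries.

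Clca2, the member of stratified epithelia, had at most 6 counts in a library. There were 0, 0 and 1 counts in control, 0, 4 and 0 in asthma and 0, 6 and 4 in BSYQF replicates 1, 2 and 3. Clca2 was at or near the floor everywhere, and no difference between groups was detectable at this depth.

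Levels of different genes are comparable only per length, here as CPM per kb of annotated exon. In control the mean levels per kb were 0.561 for Clca3a1, 0.453 for Clca1, 0.346 for Clca3b, 0.0542 for Clca3a2 and 0.00382 for Clca2. The ranges of the first 3 over the control libraries overlapped. Within each control library Clca3a1 was above Clca1, at 0.873 against 0.773, 0.345 against 0.263 and 0.464 against 0.324 in replicates 1, 2 and 3. In asthma the order of the means was Clca1 (430.2), Clca3a1 (0.651), Clca3b (0.229), Clca3a2 (0.0312) and Clca2 (0.0193). In BSYQF it was Clca1 (425), Clca3b (2.43), Clca3a1 (1.14), Clca3a2 (0.285) and Clca2 (0.0399), so Clca3b and Clca3a1 had changed places in the means. Within single libraries the ratio of Clca3b to Clca3a1 per kb was 1.68, 0.806 and 3.54 in BSYQF replicates 1, 2 and 3, 0.469, 0.550 and 0.198 in asthma, and 0.331, 1.16 and 0.751 in control. Clca1 took 27.0 to 37.5% of all Clca counts in control, 98.5 to 99.9% in asthma and 78.9 to 99.8% in BSYQF.

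Over the 6 model libraries Clca1 and Clca3b did not follow one another. BSYQF replicate 3 had the lowest Clca1 and the highest Clca3b of the 6, but BSYQF replicate 1 had the highest Clca1 and the next highest Clca3b. As a description over these 6 libraries, which share groups and cover different depths, r of log2 CPM was -0.38 for Clca1 with Clca3b, -0.65 for Clca1 with Clca3a1 and 0.72 for Clca3a1 with Clca3b. Over all 9 libraries these were 0.14, 0.27 and 0.63.

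The genes whose levels ran most like Clca1 over the 9 libraries were Tnfaip8 (r = 0.992), the gel-forming mucin Muc5ac (0.991), the lymphocyte receptor Lag3 (0.99), the chitinase-like Chil4 (0.988) and the mucosal mast cell protease Mcpt1 (0.987), among 13614 named genes with a mean of at least 1 CPM. These correlations are descriptions: the libraries fall into groups, and a gene that separates control from the model can score high. The rank order of the 9 libraries was the same for Muc5ac as for Clca1 (rho = 1), as it was for 8 genes in all. Muc5ac stood at 1.84, 0.936 and 1.49 CPM in control, 21.7, 38.5 and 12.2 CPM in asthma and 71.6, 13.4 and 8.01 CPM in BSYQF replicates 1, 2 and 3. Within the 6 model libraries r with Clca1 was 0.969 for Muc5ac and 0.994 for Chil4.

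For Clca3b the most alike were Cd4 (r = 0.92), Cd3e of the T cell receptor complex (0.918), the interferon-inducible Gbp5 (0.918), Apoe (0.916) and Pik3c2b (0.915). By rank these fared less well, with rho at 0.683, 0.85, 0.833, 0.783 and 0.717 in the same order. Of them 0 reached the fifth-highest rho, 0.917. Cd3e stood at 16.2, 12.7 and 29.4 CPM in BSYQF replicates 1, 2 and 3, against 6.81 to 10.8 CPM in asthma and 8.67 to 15.4 CPM in control. BSYQF replicate 3 was the highest library for Cd3e as for Clca3b, while control replicate 2, with 15.4 CPM of Cd3e, was at the usual low level of Clca3b. For Clca3a1 the most alike were the prolactin receptor Prlr (0.961), the tight junction gene Cldn1 (0.89), Rab39 (0.881), complement C4b (0.881) and Tnfsf11, the cytokine RANKL (0.876). Prlr stood at 2.06, 2.27 and 2.50 CPM in BSYQF, 1.02, 0.403 and 1.57 CPM in asthma and 1.84, 0.761 and 0.692 CPM in control replicates 1, 2 and 3.

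**Figure D4:**
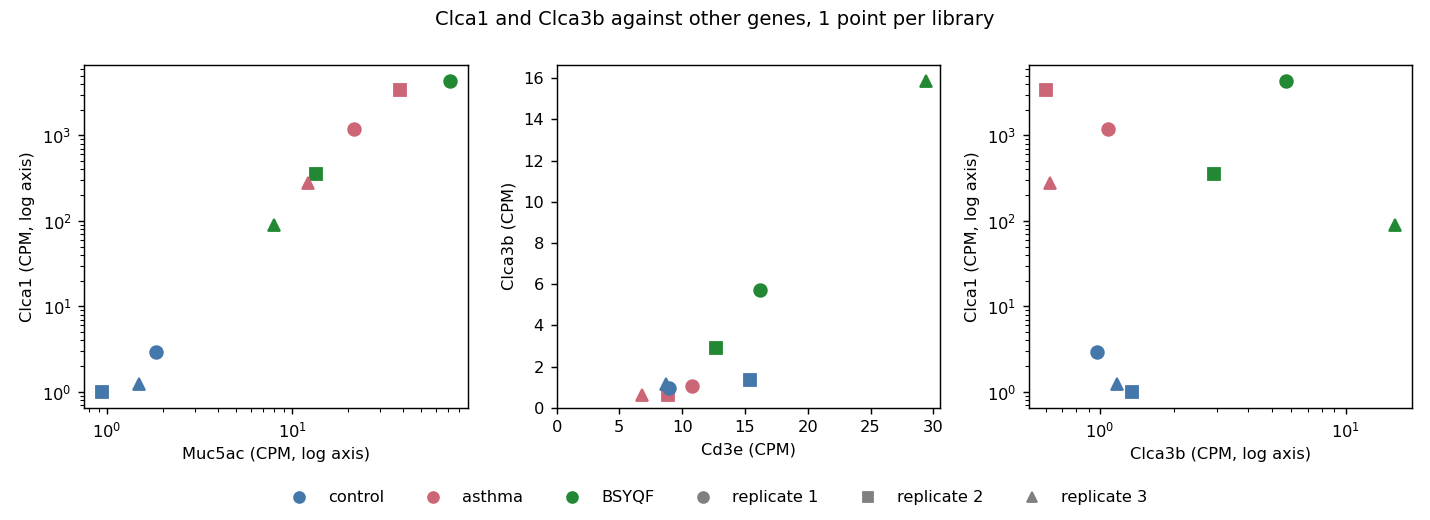
CPM of Clca1 against Muc5ac (log axes), Clca3b against Cd3e (linear axes) and Clca1 against Clca3b (log axes), 1 point per library, coloured by group and shaped by replicate. Clca1 and Muc5ac put the 9 libraries in the same order, and BSYQF replicate 3 stands alone at the top for Clca3b (15.9 CPM) and Cd3e (29.4 CPM).

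The genes around Clca1 in its pathway were tested with edgeR (quasi-likelihood, Benjamini-Hochberg adjustment over all 14739 genes). The gene lists used here and below were chosen with earlier results of these data known, so their counts of called genes are a description. Of 16 goblet cell and mucus genes, 11 rose and 0 fell in asthma against control, a comparison in which 12.7% of all genes were called, and the list's median log2 fold change was 3.20, against 0.02 over all genes. Slc26a4, the anion exchanger pendrin, rose by 4.92 ± 0.77 (adjusted p = 0.0100), Agr2, a folding enzyme for mucins, by 3.85 ± 0.69 (0.0132), the trefoil peptide Tff2 by 3.43 ± 0.61 (0.0129) and the mucin Muc5b by 2.99 ± 0.55 (0.0148). Muc5ac rose by 4.07 ± 0.87 (adjusted p = 0.0243), and the transcription factors of the goblet cell programme rose too, Spdef by 2.39 ± 0.59 (0.0311) and Foxa3 by 2.95 ± 0.80 (0.0406). The count of called members was 0 without control replicate 2, 2 without control replicate 1, asthma replicate 1 or asthma replicate 2, 4 without control replicate 3, 6 without BSYQF replicate 2 and 5 by limma voom. In BSYQF against control 3 of the 16 rose (Muc5ac, Tff2 and Slc26a4, at 4.43 ± 0.88, 3.61 ± 0.61 and 4.20 ± 0.75), where 1.67% of all genes were called and the list's median was 3.04. That count was 0 without any 1 control library, 2 without asthma replicate 1 or BSYQF replicate 1, 8 without asthma replicate 3, 7 without BSYQF replicate 3, 14 by DESeq2 and 0 by limma voom.

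In BSYQF against asthma 0 of the 16 goblet cell genes were called by edgeR, DESeq2 or limma voom, and 0 had an unadjusted p under 0.05 by edgeR, where 0.00678% of all genes were called and 7.94% had such a p. Their median log2 fold change was 0.13. Agr2 had a value of -0.88 ± 0.60 (adjusted p = 0.658), Tff1 2.19 ± 1.58 (0.670) and Muc5ac 0.36 ± 0.73 (0.886). Muc5ac turned to -1.16 without BSYQF replicate 1, the library that was also highest for Clca1.

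Of 15 type 2 cytokines, receptors and signalling genes, 10 were tested. In asthma against control 2 rose, the alarmin Il33 by 1.78 ± 0.30 (adjusted p = 0.0100) and the feedback inhibitor Socs1 by 1.64 ± 0.47 (0.0462), and the median was 0.13, where 8.23% of all genes were called higher. Socs1 was not called when any 1 control library, asthma replicate 1, asthma replicate 2 or BSYQF replicate 2 was left out. Il13ra2, the decoy receptor of IL-13, had a value of 3.19 ± 1.07 (0.0695) and Stat6 -0.22 ± 0.14 (0.276). In the other comparisons 0 were called by edgeR, 1 with an unadjusted p under 0.05 in BSYQF against asthma and 3 in BSYQF against control, against 7.94% and 15.8% of all genes, and DESeq2 called 1 in each. Il33 in BSYQF against asthma stood at -1.18 ± 0.29 (adjusted p = 0.346, or called by DESeq2 and without asthma replicate 3). The cytokine Il13 had 14, 3 and 0 counts in asthma and 16, 2 and 0 in BSYQF replicates 1, 2 and 3, against 1 to 2 in control. Its highest library, BSYQF replicate 1, was also the highest for Clca1, but asthma replicate 3, with 275 CPM of Clca1, had no Il13 count, which allows up to 0.134 CPM. Il4 had at most 11 counts in any library.

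Of 18 genes of chloride and ion transport, 15 were tested, and the potassium channel Kcnn4 and Slc26a4, also on the goblet list, were the 2 that rose in asthma against control and in BSYQF against control. Over all genes 8.23% and 1.63% were called higher, so the count for asthma against control is near that background. Kcnn4 rose by 1.87 ± 0.32 (adjusted p = 0.0100) and 1.56 ± 0.32 (0.0357). In asthma against control Kcnn4 was not called without control replicate 2 or asthma replicate 1, nor Slc26a4 without control replicate 2 or 3. In BSYQF against control neither gene was called without any 1 control library or BSYQF replicate 1. Ano1, the channel on which Clca1 acts, had a value of -0.63 ± 0.27 (adjusted p = 0.133) in asthma against control, and it was called lower without BSYQF replicate 1 or with the 2 groups fitted alone. The chloride channel Cftr stood at -0.53 ± 0.19 (0.0759) in asthma against control and was called lower by DESeq2 and without asthma replicate 3. For BSYQF over asthma 0 of 15 were called by edgeR, DESeq2 or limma voom, and 1 had an unadjusted p under 0.05. The list's median was -0.06 for asthma over control, -0.09 for BSYQF over asthma and -0.13 for BSYQF over control.

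In BSYQF against asthma, where Clca3b had a rise, the list median was 0.75 for basal cell, 2.19 for cardiac muscle and 4.77 for adipocyte genes. It was also above 0 for the squamous (1.17, 1 gene tested), lymphatic endothelial (0.46), leukocyte (0.38), blood endothelial (0.25) and goblet (0.13) lists. The remaining lists had medians below 0. In BSYQF against control the basal cell, cardiac and adipocyte medians were 0.69, 0.01 and -0.16, and Clca3b stood at 2.81. The part of these cell types in the levels of Clca3b was not tested. Of 12 basal cell genes 11 were tested, with a mean on the log2 scale of -0.77 to -0.99 from control in asthma and 0.22 to 0.99 above it in BSYQF, highest in BSYQF replicate 3. The keratins Krt5 and Krt15 fell in asthma against control, to log2 fold changes of -4.13 ± 0.60 (adjusted p = 0.00715) and -3.46 ± 0.59 (0.0100), where 4.45% of all genes were called lower. The other 9 tested basal cell genes were not called there, and 4 of the 11 had log2 fold changes above 0, with a list median of -0.67. Krt5 rose by 5.15 ± 0.60 (0.0431) in BSYQF against asthma, the 1 gene called there, with 4, 2 and 1 counts in asthma and 84, 47 and 130 in BSYQF replicates 1, 2 and 3. With 1 library removed at a time that call was lost in 7 of 9 fits, and it held without asthma replicate 3 and without BSYQF replicate 2. The 10 cardiac muscle genes, which mouse lung expresses in its pulmonary veins, summed to 462 to 1424 CPM in BSYQF, 131 to 244 CPM in asthma and 460 to 1050 CPM in control. The 7 adipocyte genes summed to 125 to 499 CPM, 19.7 to 40.7 CPM and 120 to 594 CPM in the same order. In both lists BSYQF replicate 3 was the highest BSYQF library. Control replicate 3 reached 1050 CPM of the cardiac genes and control replicate 1 reached 594 CPM of the adipocyte genes, with Clca3b at 1.17 and 0.973 CPM. In asthma against control 8 of the 10 cardiac and 6 of the 7 adipocyte genes fell, with 0 to 9 and 1 to 7 called when a library was left out. In BSYQF against asthma 0 were called by edgeR while all 17 had an unadjusted p under 0.05, as did 7.94% of all genes.

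Smooth muscle and lymphatic endothelium are where Clca3b and Clca3a1 are described. Of 9 smooth muscle genes 0 were called in any comparison by edgeR, with 2 at an unadjusted p under 0.05 for asthma over control, 1 for BSYQF over asthma and 1 for BSYQF over control. Over all genes such a p was found for 34.1%, 7.94% and 15.8%. Their sum was 792 to 1193 CPM in BSYQF, with the lowest value in replicate 3, 999.8 to 1404 CPM in asthma and 826 to 1219 CPM in control. Of 8 lymphatic endothelial genes 6 were tested and 0 called in any comparison by edgeR, with 1, 0 and 1 at an unadjusted p under 0.05. Their median log2 fold change was -0.10, 0.46 and 0.13 in the same order. Their mean from control on the log2 scale was lowest in BSYQF replicate 1 (-0.56) and highest in BSYQF replicate 3 (0.62). Clca3a1 was above all asthma and control libraries in both, and highest in BSYQF replicate 3. The part of lymphatic endothelium in Clca3a1 levels was not tested. In asthma against control 1 lymphatic gene was called by DESeq2 and without asthma replicate 3. In the squamous epithelium list only Lgals7 of 8 genes was tested, and Krt4, Krt13, Krt6a and Sprr3 had at most 17, 6, 12 and 0 counts. A lymphoid tissue list, added after the likeness to Cd3e and Cd4 was seen and so not tested, summed to 408, 277 and 434 CPM in BSYQF replicates 1, 2 and 3, 172 to 306 CPM in asthma and 170 to 218 CPM in control. Its 8 genes include Cd4 itself. All of them but Ltb were highest in BSYQF replicate 3, while Ltb stood at 103 CPM there and 153 CPM in BSYQF replicate 1. The most extreme was Madcam1, of lymphoid tissue vessels, with 86 counts in BSYQF replicate 3 and 0 to 8 elsewhere. In asthma against control, 3 of 8 leukocyte genes and 2 of 8 ciliated cell genes rose, 1 of 8 alveolar type 2 genes rose, 1 of 8 club cell and 1 of 9 blood endothelial genes fell, and 0 of 3 tested cartilage genes were called. With 8.23% of all genes called higher and 4.45% lower, a single called gene in a list of this size is near the background. In BSYQF against asthma 0 of these were called, and in BSYQF against control 1 leukocyte gene rose. Thymus-defining genes (Rag1, Rag2, Dntt, Ptcra and Aire) had at most 4 counts in any library.

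**Figure D5:**
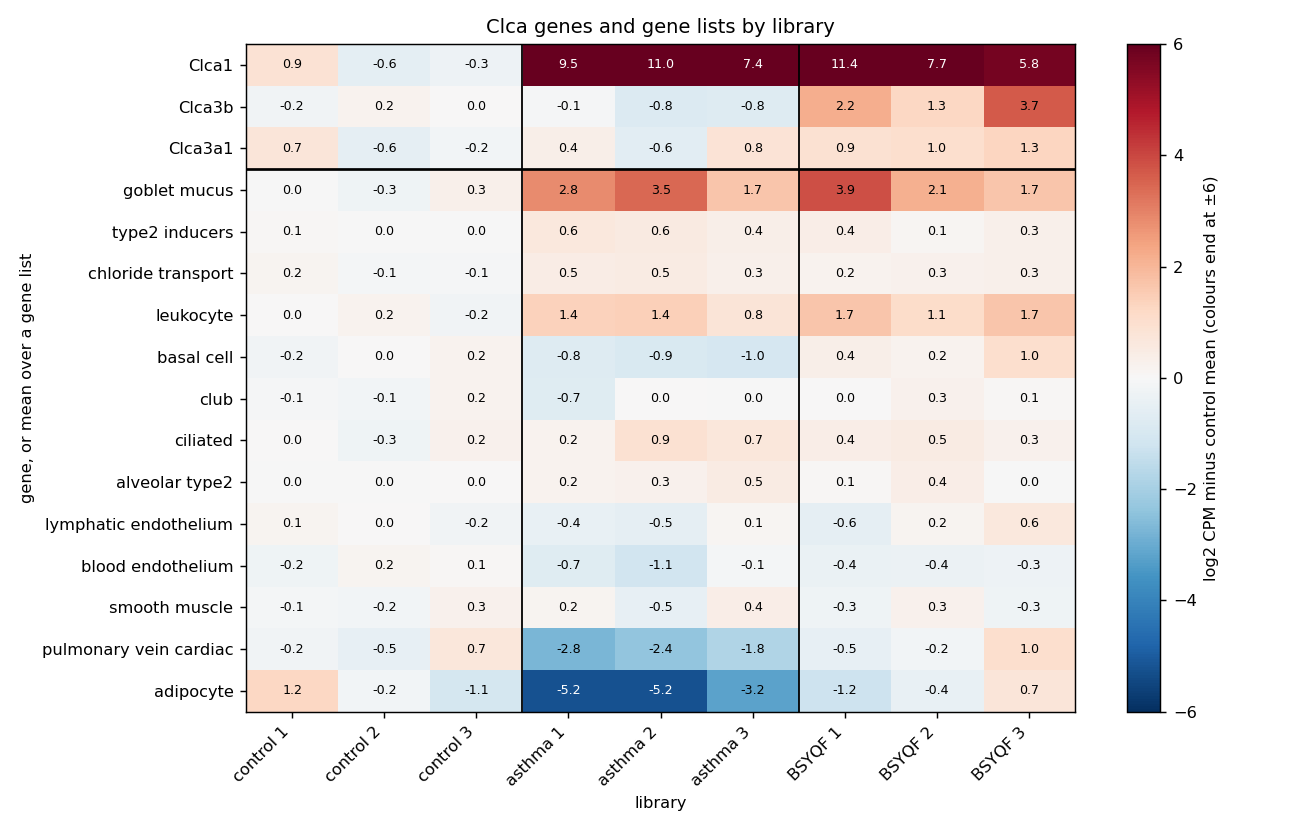
Log2 CPM minus the control mean for the 3 Clca genes past the filter (above the line) and the mean over the tested members of 13 gene lists, in each of the 9 libraries; colours end at ±6 and the numbers give the values. The goblet list puts the 6 model libraries in the same order as Clca1. Clca3b is highest in BSYQF replicate 3. The basal cell, cardiac muscle and lymphatic endothelial lists are also highest there, at 0.99, 0.99 and 0.62.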

How the data were processed

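Per the labels' protocols, NEBNext Ultra libraries were made from 3 µg of Trizol-extracted lung RNA. Build mm10 and the tools STAR, HTSeq, cutadapt, FastQC and DESeq2 are listed in the submitters' processing notes with no versions. Annotation, strand and read layout: not given in the sources used here. Every fit used the authors' deposited counts, whole numbers per gene symbol. The deposited comparison tables hold, per the file headers, log2 fold changes and p-values, of which only the Clca rows were printed; every listed gene had a p-value under 0.05 there. Their 36 columns of values per library were not used.

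The members and lists were chosen with earlier results of these data known. Counts were filtered (filterByExpr), scaled (TMM) and modelled in R 4.3.3 by edgeR 4.0.16 (glmQLFit, robust, 3 groups, no replicate block), with calls at a Benjamini-Hochberg adjusted p under 0.05. The SE is the log2 fold change divided by the root of F. The fit was checked on simulated data with the same spread for every gene, which does not cover genes as variable as Clca1. Log2 CPM used a prior count of 2. Alternatives were other scalings, no filter, DESeq2 1.42.0, limma 3.58.1 (voom), edgeR's newer quasi-likelihood method, 2-group fits, a replicate block and leaving out each library. Of 153 listed genes in 15 lists, 128 were tested. Named genes were the members, fixed genes of the pathway, the list members with the smallest p-values and the 5 genes most like each member. Genes overlapping on the other strand cannot be told apart where counting ignored strand, and the antisense genes annotated within Clca3a1 and Clca3a2 are not rows of the table. Coordinates are from GENCODE vM21. Start-region sequences are not reported here.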

Additional observations from a re-analysis of the deposited data

How the results depend on the processing

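The numbers of genes called were 1869 in asthma against control, 1 in BSYQF against asthma and 246 in BSYQF against control, and they moved with the method and the libraries. DESeq2 called 3315, 123 and 826 genes, and limma voom called 0 in BSYQF against asthma and 90 in BSYQF against control. Fitting only the compared groups gave 0 and 389 in the same order. With 1 library left out, the counts ran from 171 to 4262, 0 to 114 and 9 to 563. Of the listed genes edgeR called 38 in asthma against control (voom 24, 10 to 61 with a library left out). In BSYQF against asthma DESeq2 called 16 listed genes, voom 0 and the 2-group fit 0, with 0 to 7 when a library was left out. In BSYQF against control the unfiltered fit called 3, DESeq2 22, voom 1 and the 2-group fit 8, with 1 to 12 when a library was left out. The cause of these moves was not tested.

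With a library left out, Clca1 ran from -2.88 to 1.12 (log2) in BSYQF against asthma and from 6.98 to 10.49 in BSYQF against control, and Clca3b from 2.47 to 3.80 and from 1.88 to 3.21. Clca1 in BSYQF against asthma was -1.04 by voom. For BSYQF over asthma Muc5ac turned to -0.11 by voom and ran from -1.16 to 0.87 with a library left out, and Tff1 from -1.04 to 3.32. Odf2l in asthma against control ran from -0.065 to 0.47. Of the 5 genes most like Clca1, Clca3a1 and Clca3b, 0, 3 and 0 were among the 5 by Spearman correlation with ties ordered by name, and 1, 3 and 0 when tied genes were all counted, since 8 genes tied at rho = 1 for Clca1. Over the 6 model libraries the counts were 1, 0 and 0.

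Replicate numbers did not pair the samples: same-numbered libraries correlated at -0.259 to 0.339, and 3 of 9 correlated best with their own number. With a replicate block, BSYQF against asthma gave 15 called genes, 9 of them listed, Muc5ac at -0.10 and Clca1 at -1.04. Depth limits Clca2 and Clca3a2, and 3 libraries per group limit all fits.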

Other observations

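The genes that flank the Clca cluster gave other values than Clca1 itself. Sh3glb1, which lies 9.3 kb beyond Clca3a1, had a log2 fold change of -0.18 ± 0.13 in asthma against control (adjusted p = 0.322, edgeR). Odf2l, 19.1 kb beyond Clca2, had 0.30 ± 0.27 (0.443). Of the 5 tested genes within 300 kb of the cluster, the collagen gene Col24a1 rose in asthma against control by 3.25 ± 0.71 (0.0219) and the heparan sulfate enzyme Hs2st1 fell by 0.64 ± 0.18 on the log2 scale (0.0445). Col24a1 was called in 4 and Hs2st1 in 3 of 9 fits with a library removed. They were looked at because of their position, after the Clca values were known.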
